A study of Mus musculus with 9 samples.

Results

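Transcript levels of 9 genes of interleukin-1 (IL-1) and NF-kB signalling and of its feedback inhibitors were examined in mouse liver after ischaemia. The genes were taken by symbol from the 11229 genes of the deposited table. They were the ligands Il1a and Il1b, the receptor antagonist Il1rn, the receptor Il1r1, the lipopolysaccharide (LPS) recognition genes Lbp and Cd14, the adaptor Tifa, and the inhibitors Nfkbia and Tnfaip3. Each of the 9 symbols matched 1 gene, and all 9 passed the filter on low values, which asked for a mean over the 9 libraries of 1 FPKM or more. FPKM is fragments scaled by transcript length and by library size, so levels of different genes can be set side by side.

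All mice were C57BL/6 of 8 weeks. The ischaemic postconditioning (IPO) group had 3 libraries, the ischaemia-reperfusion (IR) group had 3, and the sham-operated group had 3. In IR, flow to the liver is stopped and later let back in. IPO adds short repeated stops of the flow as reperfusion begins. The labels give no length of ischaemia or reperfusion, no sex and no statement on whether a library came from 1 animal or a pool. Nothing in them says that libraries of a group came from separate mice, so p-values measure only how far these libraries differ among themselves, and that spread may be technical. The study's title names the attenuation of hepatic IR injury by IPO as its subject, and IR against sham, IPO against IR and IPO against sham are the comparisons that follow from the groups.

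IL-1α and IL-1β bind the receptor IL-1R1, which recruits the co-receptor IL-1RAcP and the adaptor MyD88, and through IRAK kinases and TRAF6 activates the IKK complex. IKK marks IκBα, the product of Nfkbia, for degradation, which frees NF-kB to enter the nucleus, and NF-kB in turn induces Nfkbia and Tnfaip3, which act back on the pathway. In the liver, IL-1 is a classic inducer of acute phase proteins in hepatocytes, and Kupffer cells, the resident macrophages, are a main source of IL-1 and respond to LPS carried in portal blood through LBP, CD14 and TLR4.

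The first principal component of the 9 libraries held 46.8% of the variance and put the IPO libraries at -25.6 to -19.5, the IR libraries at 29.8 to 43.8, and sham replicates 1 and 2 at -21.2 and -18.2. Sham replicate 3 stood apart at -2.20. IR replicate 3 had the highest marker sums for Kupffer cells, monocytes, lymphocytes and sinusoidal endothelial cells. The 14 Kupffer cell markers summed to 727 FPKM there, against 318 and 216 FPKM in IR replicates 1 and 2. Its neutrophil sum, 76.0 FPKM, lay within the ranges of the IPO and sham livers. Hepatocyte markers, 10 of 11 present in the table, summed to 27256 to 29844 FPKM in IPO livers, 27348 to 34846 FPKM in IR livers and 21692 to 30015 FPKM in sham livers. The table holds no read counts, so neither the depth nor the counting error of a value is known. These are whole livers, and in them fewer cells of a type and less RNA per cell cannot be told apart.

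The receptor gene Il1r1 and the adaptor gene Tifa fell steeply in IR livers, Lbp fell moderately, and the inhibitor gene Nfkbia rose. In IPO livers Il1r1, Tifa and Cd14 were higher than in IR livers and Nfkbia was lower. The ligand genes, the antagonist gene and Tnfaip3 passed the test in no comparison. Between IR and sham, 4 of the 9 genes were called (1 higher, 3 lower) at an adjusted p under 0.05 in limma with Benjamini-Hochberg adjustment, where 11.5% of the 9649 genes tested were called, 3.86% higher and 7.64% lower. Between IPO and IR, 4 of 9 were called (3 higher, 1 lower), against 22.1% of all genes, 12.0% higher and 10.1% lower. Between IPO and sham, 0 of 9 were called, against 0.228% of all genes, and 1 of the 9 had an unadjusted p under 0.05, as did 1186 of the 9649 genes. The median log2 fold change of the 9 was -0.86 for IR over sham, 0.89 for IPO over IR and -0.19 for IPO over sham, beside -0.05, 0.02 and -0.03 over all genes tested. The IR libraries enter both IR against sham and IPO against IR, and each group enters 2 of the 3 comparisons, so these are not independent of each other.

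**Figure D1:**
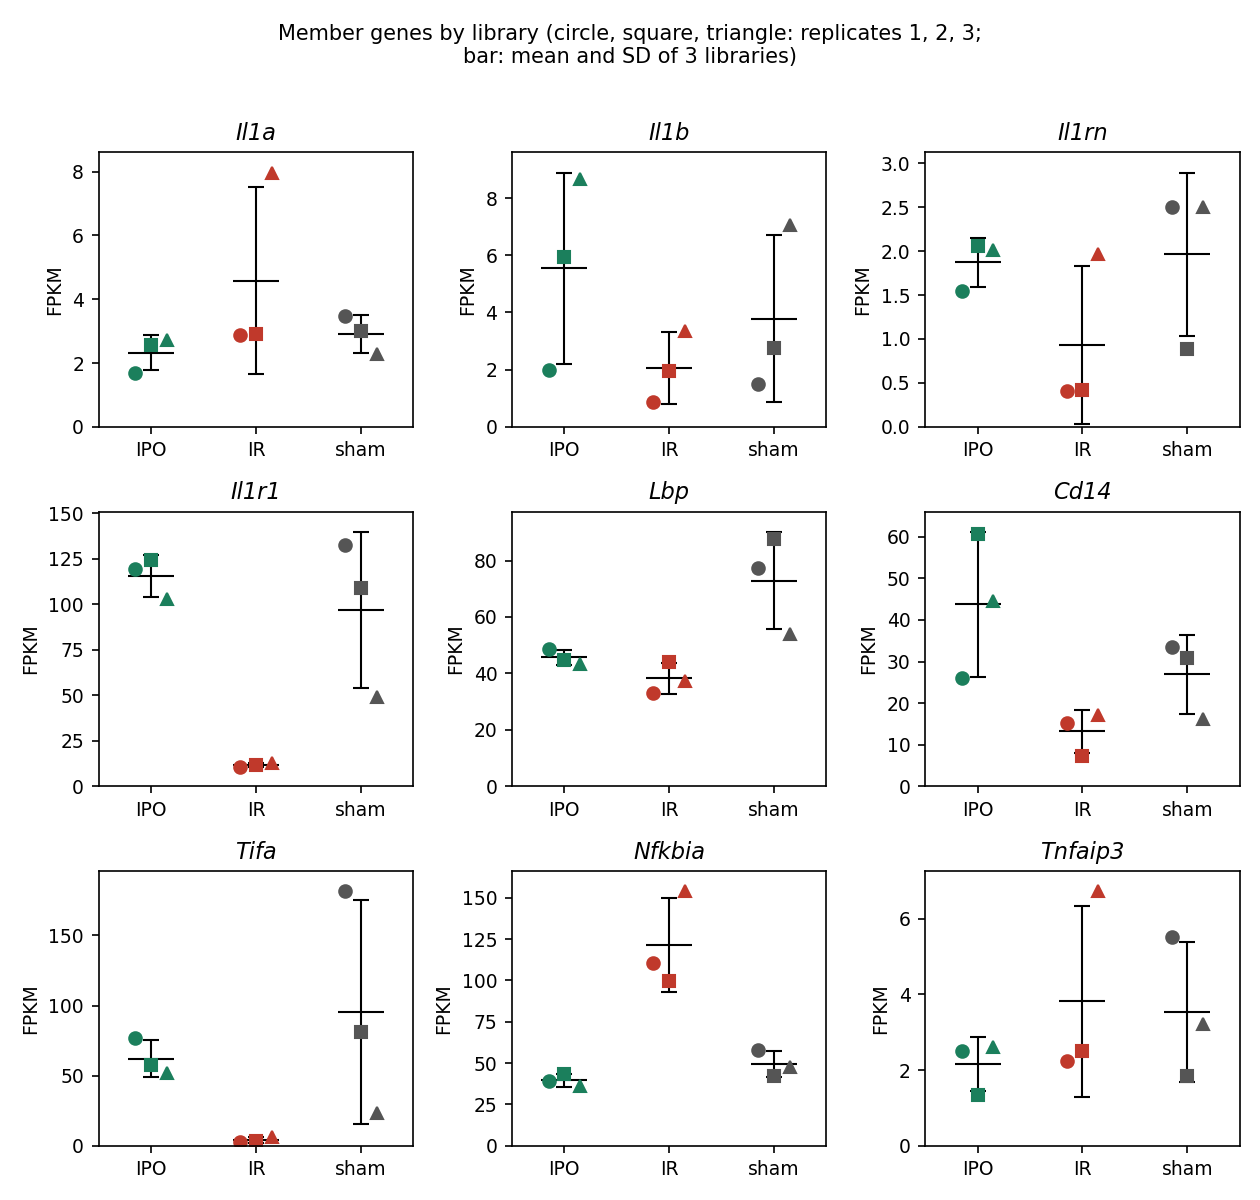
FPKM of the 9 genes in each library, with 1 panel a gene and its own axis from 0; circles, squares and triangles are replicates 1, 2 and 3, and bars are the mean and SD of 3 libraries. Il1r1 lies at 10.4 to 12.9 FPKM in the IR libraries and at 49.2 FPKM or more in all others, and Nfkbia lies at 99.5 FPKM or more in IR and at 57.8 FPKM or less in all others.

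The 250 bases before the transcription start, from RefSeq on GRCm38.p6, are shown for the 2 of the 9 genes that fell most in IR livers and for the 2 inhibitor genes, which are known NF-kB targets. RefSeq's table held such a stretch for 7 of the 9 genes. They are written 5′ to 3′ on the gene's own strand, and capitals mark matches to the NF-kB motif (kappaB, 10 bases) or to the AP-1 motif TGANTCA, searched on both strands. The kappaB core, a stricter form of the NF-kB motif, overlaps it by definition. The stretches lie at chr1:40224830-40225079 (plus strand) for Il1r1, chr3:127789622-127789871 (plus strand) for Tifa, chr12:55492648-55492897 (minus strand) for Nfkbia and chr10:19015411-19015660 (minus strand) for Tnfaip3. The RefSeq start lay 67 bases downstream of the deposited 5′ end of the gene for Tifa and 247 bases downstream of it for Tnfaip3, and at the same base for the other 2. The Tnfaip3 stretch thus lies almost wholly within the deposited span of that gene, as do its marked matches.
Il1r1: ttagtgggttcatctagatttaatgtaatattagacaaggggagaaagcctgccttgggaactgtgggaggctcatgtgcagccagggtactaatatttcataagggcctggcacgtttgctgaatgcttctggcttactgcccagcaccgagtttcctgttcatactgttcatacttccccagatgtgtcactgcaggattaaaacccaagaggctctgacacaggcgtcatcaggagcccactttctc
Tifa: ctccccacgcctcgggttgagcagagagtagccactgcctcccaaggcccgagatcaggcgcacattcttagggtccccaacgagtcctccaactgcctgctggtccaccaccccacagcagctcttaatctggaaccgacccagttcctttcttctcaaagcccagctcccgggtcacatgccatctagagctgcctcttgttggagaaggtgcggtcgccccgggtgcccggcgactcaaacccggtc
Nfkbia: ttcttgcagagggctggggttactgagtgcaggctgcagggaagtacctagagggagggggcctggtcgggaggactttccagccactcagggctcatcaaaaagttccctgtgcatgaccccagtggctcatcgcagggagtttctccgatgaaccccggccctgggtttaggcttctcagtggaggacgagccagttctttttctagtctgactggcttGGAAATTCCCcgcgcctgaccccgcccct
Tnfaip3: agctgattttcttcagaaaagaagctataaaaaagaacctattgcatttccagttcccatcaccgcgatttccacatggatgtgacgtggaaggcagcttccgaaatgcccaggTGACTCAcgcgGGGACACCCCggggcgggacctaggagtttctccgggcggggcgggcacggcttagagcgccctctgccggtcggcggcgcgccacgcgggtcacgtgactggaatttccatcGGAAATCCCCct

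Nfkbia held 1 kappaB match, GGAAATTCCC, at 29 to 20 bases before the start, which also holds the stricter kappaB core. Tnfaip3 held 2 kappaB matches, GGGACACCCC at 125 to 116 and GGAAATCCCC at 12 to 3 bases before the start, and an AP-1 match, TGACTCA, at 136 to 130. Neither Il1r1 nor Tifa held a match to kappaB, its core, AP-1 or the STAT motif TTCNNNGAA in these letters. Among the stretches not shown, Il1a held an AP-1 match at 12 to 6 and Il1rn one at 141 to 135 bases before the start, and Il1b held none of the 4. Of 32851 stretches of the same length, 7.25% held a kappaB match, 1.21% the core, 6.75% the AP-1 motif and 7.02% the STAT motif.

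Il1a encodes IL-1α, an IL-1 form that is active as its precursor and can be released by dying cells. It had 1.70, 2.57 and 2.72 FPKM in IPO livers, 2.86, 2.92 and 7.97 FPKM in IR livers, and 3.47, 3.00 and 2.27 FPKM in sham livers. IR replicate 3 was far above every other library, all IPO values lay below all IR values, and IR and sham overlapped. The log2 fold change was 0.45 for IR over sham (SE 0.34, 95% interval -0.31 to 1.21, limma adjusted p = 0.404). For IPO over IR it was -0.72 (interval -1.48 to 0.04, limma adjusted p = 0.154), and neither passed the test. Without IR replicate 3 the IPO over IR value was -0.28. The predicted gene Gm14023 overlaps Il1a on the other strand, and the sources used here do not say whether the counting used strand.

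Il1b encodes IL-1β, which is made as an inactive precursor and cut by caspase-1. Its level was 2.00, 5.95 and 8.66 FPKM in IPO livers, 0.874, 1.94 and 3.35 FPKM in IR livers, and 1.51, 2.77 and 7.07 FPKM in sham livers. The spread within each group was several-fold and the groups overlapped in every comparison. The log2 fold change was 1.17 for IPO over IR (SE 0.59, interval -0.16 to 2.50, limma adjusted p = 0.184). For IR over sham it was -0.65 (interval -1.98 to 0.68, limma adjusted p = 0.486). The antisense gene Il1bos overlaps Il1b, with the same limit on strand.

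Il1rn encodes IL-1Ra, the secreted antagonist that occupies IL-1R1 without signalling. It had 1.55, 2.06 and 2.01 FPKM in IPO livers, 0.412, 0.420 and 1.97 FPKM in IR livers, and 2.50, 0.887 and 2.50 FPKM in sham livers. IR replicates 1 and 2 were the lowest of the 9 libraries, while IR replicate 3 was at the IPO level. The log2 fold change was -0.86 for IR over sham (SE 0.42, interval -1.79 to 0.07, limma adjusted p = 0.196). For IPO over IR it was 0.89 (interval -0.04 to 1.82, limma adjusted p = 0.152). Il1rn was the one gene of the 9 for which leaving out 1 library brought a call: without IR replicate 3 the log2 fold change was -1.34 for IR over sham (limma adjusted p = 0.0326) and 1.37 for IPO over IR (limma adjusted p = 0.0201). The Kupffer cell, neutrophil, monocyte and lymphocyte marker sums given below were highest among IR livers in that same replicate, and their part in the Il1rn level was not tested.

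A pair of ratios of these levels, chosen after the values were seen and given with no test, describe the balance of the ligands. The level of Il1b over that of Il1a was 1.18, 2.32 and 3.18 in IPO livers, 0.305, 0.665 and 0.421 in IR livers, and 0.436, 0.924 and 3.11 in sham livers. All IPO ratios were above 1 and all IR ratios below it, with sham on both sides. The summed level of Il1a and Il1b over that of Il1rn was 2.38, 4.14 and 5.67 in IPO livers, 9.08, 11.6 and 5.74 in IR livers, and 1.99, 6.51 and 3.74 in sham livers. The values of IR replicates 1 and 2 rest on Il1rn levels of 0.412 and 0.420 FPKM, which are low and of unknown counting error. IR replicate 3, at 5.74, was just above IPO replicate 3, at 5.67, so these groups were apart by a narrow margin, and IR and sham overlapped.

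Il1r1 encodes the signalling receptor for both ligands and the target of the antagonist (ENSMUSG00000026072.12, chr1:40225080-40317257, plus strand, mm10). Its level was 119, 124 and 103 FPKM in IPO livers, 10.4, 12.0 and 12.9 FPKM in IR livers, and 132, 109 and 49.2 FPKM in sham livers. The IR libraries were tightly grouped and far below all 6 others, and sham replicate 3 was the lowest of those 6. The mean was 11.8 ± 1.25 FPKM in IR livers and 96.8 ± 42.9 FPKM in sham livers (SD, n = 3 each). In the fit, which averages log2(FPKM + 0.5) and so gives folds that differ from ratios of these means, it fell 7.35-fold (log2 fold change -2.88, SE 0.31, limma adjusted p = 0.00139). In IPO livers the mean was 116 ± 11.4 FPKM, and the log2 fold change over IR was 3.24 (SE 0.31, limma adjusted p = 0.000426), or 9.47-fold higher in the fit. IPO over sham was 0.37 (interval -0.32 to 1.05, limma adjusted p = 0.683). Il1r1 had the highest level of the 9 genes in IPO and in sham livers and the fourth highest in IR livers. Both calls held under every alternative run, with log2 fold changes from -3.30 to -2.59 for IR over sham and from 3.16 to 3.32 for IPO over IR. The annotated gene Gm38070 overlaps Il1r1 on the same strand, and the sources used here do not say how reads in the overlap were counted.

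The co-receptor gene Il1rap, named after its values were seen, overlapped between all groups: it had 10.2, 9.56 and 9.35 FPKM in IPO livers, 8.33, 12.9 and 10.3 FPKM in IR livers, and 9.60, 8.89 and 11.8 FPKM in sham livers. For Il1rap the log2 fold change was 0.05 for IR over sham (SE 0.17, limma adjusted p = 0.873) and -0.09 for IPO over IR (SE 0.17, limma adjusted p = 0.732). Il1r1 over Il1rap was thus 11.7, 13.01 and 11.0 in IPO livers, 1.25, 0.925 and 1.25 in IR livers, and 13.8, 12.2 and 4.17 in sham livers. The transcripts of the 2 receptor chains were at near equal levels in each IR liver, and Il1r1 was at a multiple of Il1rap in every other liver. Il1r2, the decoy receptor that binds IL-1 without signalling, had 1.17, 4.22 and 2.97 FPKM in IPO livers, 0.296, 0.622 and 0.741 FPKM in IR livers, and 1.23, 1.12 and 2.78 FPKM in sham livers. It was higher in IPO than in IR livers by 1.54 on the log2 scale (SE 0.40, limma adjusted p = 0.0237), and all IPO values lay above all IR values. For IR over sham it was -1.02 (SE 0.40, limma adjusted p = 0.123).

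Of 14 other IL-1 family ligands, receptors and binding proteins, 5 were tested. Between IR and sham 0 of these 5 were called, where 11.5% of all genes were called. Between IPO and IR Il1r2 alone was called, as higher, where 12.0% of all genes were called higher. The median log2 fold change of these 5 was 0.05 for IR over sham and -0.11 for IPO over IR, beside -0.05 and 0.02 over all genes. Il18bp, which binds and blocks IL-18, had 4.43, 2.67 and 3.49 FPKM in IPO livers, 2.75, 2.75 and 10.9 FPKM in IR livers, and 2.36, 2.46 and 2.45 FPKM in sham livers. IR replicate 3 again stood alone, and without it the IPO over IR value, -0.32 with all libraries, was 0.29. Sigirr, an inhibitory receptor of the family, had 3.15, 2.39 and 2.90 FPKM in IPO livers, 3.82, 4.12 and 3.62 FPKM in IR livers, and 3.07, 3.24 and 3.30 FPKM in sham livers. IPO and IR did not overlap for Sigirr, and the log2 fold change of -0.40 missed the threshold (limma adjusted p = 0.056).

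Lbp encodes the plasma protein that hands LPS to CD14, and hepatocytes are its main source (ENSMUSG00000016024.9, chr2:158306493-158332852, plus strand, mm10). It had 48.8, 44.9 and 43.3 FPKM in IPO livers, 33.1, 44.2 and 37.3 FPKM in IR livers, and 77.2, 87.5 and 53.9 FPKM in sham livers. Every sham library was above every library of the other 2 groups, which overlapped with each other. Lbp fell to 38.2 ± 5.60 FPKM in IR livers, against 72.9 ± 17.2 FPKM in sham livers (SD, n = 3 each), a log2 difference of -0.90 (SE 0.18, limma adjusted p = 0.0172). IPO over IR was 0.26 (interval -0.15 to 0.68, limma adjusted p = 0.336). IPO over sham was -0.64 (interval -1.06 to -0.23), with an unadjusted p of 0.00634 and a limma adjusted p of 0.197, the smallest of the 9 genes in that comparison. The IR call was lost when sham replicate 1 (limma adjusted p = 0.0746), sham replicate 2 (0.0682) or IR replicate 1 (0.0508) was left out and when the 2 groups were fitted alone (0.062).

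Cd14 on chromosome 18 encodes the surface co-receptor that passes LPS to TLR4 and MD-2 and is carried by macrophages and neutrophils. It had 26.0, 60.7 and 44.6 FPKM in IPO livers, 15.2, 7.20 and 17.1 FPKM in IR livers, and 33.6, 31.0 and 16.1 FPKM in sham livers. All IPO values lay above all IR values, and sham replicate 3 fell among the IR values. Cd14 was higher in IPO livers, at 43.8 ± 17.4 FPKM, than in IR livers, at 13.2 ± 5.28 FPKM (SD, n = 3 each), by 1.70 on the log2 scale (SE 0.41, limma adjusted p = 0.018), or 3.25-fold in the fit. IR over sham was -1.02 (interval -1.93 to -0.11, limma adjusted p = 0.129), which did not pass, and IPO over sham was 0.68 (interval -0.23 to 1.59, limma adjusted p = 0.55). The IPO over IR call was lost without IR replicate 2 (limma adjusted p = 0.0505), IPO replicate 2 (0.0652) or IPO replicate 3 (0.0597).

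Markers of cells known to carry Cd14 and Il1b were summed in each library. The neutrophil markers, 9 of 13 present in the table, summed to 51.0, 131 and 134 FPKM in IPO livers, 12.0, 43.3 and 76.0 FPKM in IR livers, and 84.6, 66.4 and 95.6 FPKM in sham livers. The Kupffer cell markers, 14 of 14 present, summed to 274, 277 and 237 FPKM in IPO livers, 318, 216 and 727 FPKM in IR livers, and 257, 281 and 196 FPKM in sham livers. Among 7 neutrophil markers tested, 3 were higher in IPO than in IR livers (Clec4d, Cxcr2 and Mmp8), and 1 was lower in IR than in sham livers (Mmp8). Of 14 Kupffer cell markers 0 were called in either comparison. Of 4 monocyte markers tested, 1 was higher in IPO than in IR livers (Chil3). Over all genes, 12.0% were higher in IPO than in IR livers and 7.64% lower in IR than in sham livers. The 8 monocyte markers present summed to 50.6 to 74.3 FPKM in IPO livers, 40.3 to 126 FPKM in IR livers and 37.7 to 55.6 FPKM in sham livers, with Chil3, F13a1 and Itgam listed at 0 in at least 1 library. T, NK and B cell markers, 5 of 9 present, summed to 0.477 to 0.912 FPKM in IPO livers, 1.61 to 11.4 FPKM in IR livers and 1.07 to 2.12 FPKM in sham livers, with Cd79a, Nkg7, Cd3e and Cd79b listed at 0 in at least 1 library. The highest of the last 2 ranges was IR replicate 3 in both lists. The part of these cells in the levels of Cd14 and Il1b was not tested.

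**Figure D2:**
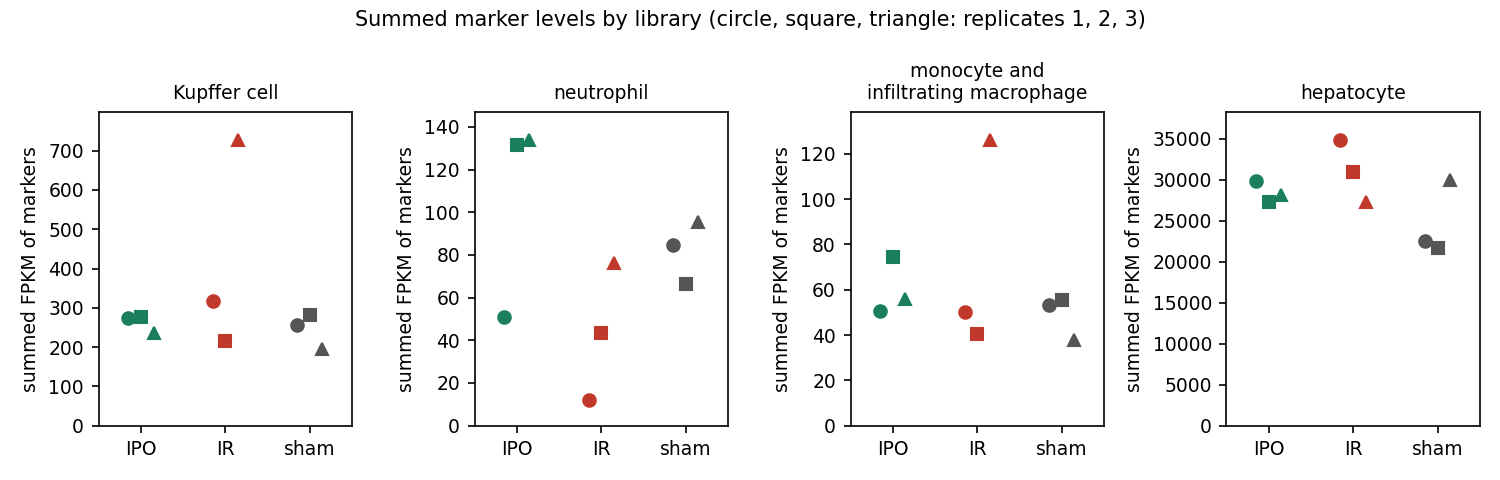
Summed FPKM of 4 lists of cell type markers in each library, with circles, squares and triangles for replicates 1, 2 and 3 and a separate axis from 0 in each panel. IR replicate 3 has the highest Kupffer cell sum, 727 FPKM, and the highest monocyte sum, 126 FPKM, and IR replicate 1 the lowest neutrophil sum, 12.0 FPKM.

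Of 15 other LPS and Toll-like receptor genes, 10 were tested. Tlr2, the receptor for bacterial lipoproteins, was the one of them called between IR and sham. It was lower in IR livers, and this 10.0% of the list stands beside 7.64% of all genes. It had 1.90, 3.21 and 2.66 FPKM in IPO livers, 1.14, 1.16 and 2.46 FPKM in IR livers, and 4.73, 5.47 and 4.15 FPKM in sham livers, where every value was above all others. For Tlr2 the log2 fold change was -1.39 for IR over sham (SE 0.25, limma adjusted p = 0.0114), and 0.60 for IPO over IR (SE 0.25, limma adjusted p = 0.118). The endosomal receptor chaperone Unc93b1 was the one gene of the list called between IPO and IR. This 10.0% of the list, called lower, stands beside 10.1% of all genes. Unc93b1 was lower in IPO by 0.78 on the log2 scale (log2 fold change -0.78, SE 0.19, limma adjusted p = 0.0182). It had 6.04, 7.36 and 5.88 FPKM in IPO livers, 10.5, 9.22 and 15.2 FPKM in IR livers, and 8.11, 8.91 and 6.99 FPKM in sham livers. All 3 IR values were above all others for Unc93b1. Tlr3, the receptor for double-stranded RNA, was at 1.40 to 1.74 FPKM in IPO livers and 0.404 to 1.37 FPKM in IR livers, and missed the threshold (log2 fold change 0.81, limma adjusted p = 0.0511). The LPS receptor gene Tlr4 and its partner Ly96 (MD-2) were looked at after their values were seen: Tlr4 was at most 1.01 FPKM in every library and was not tested. Ly96 had 4.13, 8.49 and 5.36 FPKM in IPO livers, 0.733, 2.34 and 4.90 FPKM in IR livers, and 2.86, 3.78 and 3.19 FPKM in sham livers, with a log2 fold change of 1.23 for IPO over IR (SE 0.46, limma adjusted p = 0.0809). IR replicate 3 decided the count of this list between IPO and IR: without it, 5 of the 10 genes were higher in IPO livers (Ly96, Tlr2, Tlr3, Tlr8 and Tlr13, limma adjusted p from 0.00566 to 0.0274), where 0 were called higher with all libraries. Unc93b1 was still called lower (log2 fold change -0.58, limma adjusted p = 0.0326). In that fit 2100 of all 9649 genes were called in either direction, against 2133 with all libraries. The share of all genes called higher alone in that fit is not given here.

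Tifa encodes a small scaffold with a forkhead-associated domain that binds TRAF6 and, once it oligomerises, activates IKK (ENSMUSG00000046688.14, chr3:127789805-127832164, plus strand, mm10). It had 77.1, 57.3 and 52.1 FPKM in IPO livers, 2.57, 3.01 and 6.44 FPKM in IR livers, and 181, 81.3 and 23.0 FPKM in sham livers. The IR libraries were below all 6 others, and the sham libraries ranged more widely than the IPO libraries, with sham replicate 3 below every IPO liver. Tifa fell to 4.01 ± 2.12 FPKM in IR livers, against 95.3 ± 80.1 FPKM in sham livers (SD, n = 3 each), or 16.7-fold in the fit on log2(FPKM + 0.5) (log2 fold change -4.06, SE 0.62, limma adjusted p = 0.0059). In IPO livers it was at 62.2 ± 13.2 FPKM, 14.7-fold above IR in the fit (log2 fold change 3.87, SE 0.62, limma adjusted p = 0.00379). These were the largest fold changes among the 9 genes in both comparisons. IPO over sham was -0.19, with a wide interval from -1.58 to 1.20 (limma adjusted p = 0.936). The IPO over IR call held under every alternative run, and the IR over sham call under all but the fit with the number in the description label as a term. That fit sets IR against sham replicate 2 alone, and the log2 fold change there was -4.28. The size of the IR over sham value rested on single sham libraries, at -3.38 without sham replicate 1 and -4.86 without sham replicate 3. The protein-coding gene Ap1ar overlaps Tifa on the other strand, so its reads cannot be told apart from Tifa's if strand was not used in counting.

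The kinase gene Alpk1, whose product senses bacterial heptose sugars and acts through TIFA, was named after its values were seen. It had 5.58, 3.40 and 3.18 FPKM in IPO livers, 0.127, 0.231 and 0.345 FPKM in IR livers, and 4.98, 5.03 and 0.658 FPKM in sham livers. Sham replicate 3 was again near the IR livers. Alpk1 was higher in IPO than in IR livers by 2.60 on the log2 scale (SE 0.53, limma adjusted p = 0.0094), a call that held under all 16 alternatives run. For IR over sham it was -2.17 (SE 0.53, limma adjusted p = 0.0321), a call lost under 8 of 17 alternatives.

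The 33 receptor adaptors and kinases on the list held 29 tested genes, of which 5 fell in IR livers (Irak4, Myd88, Tab1, Tbk1 and Tirap) and 0 rose, so 17.2% fell, beside 7.64% of all genes. That count was 1 to 6 under the alternatives, 2 without sham replicate 1 or sham replicate 2, and the call of Myd88 was lost under 9 of 18 of them and those of Irak4 and Tab1 under 4 of 17 each. In IPO livers 4 of the 29 were higher than in IR livers (Irak4, Tab1, Tbk1 and Tirap), which is 13.8%, beside 12.0% of all genes, a count of 2 to 6 under the alternatives. Tradd, an adaptor of the TNF receptor, was lower in IPO than in IR livers with a limma adjusted p of 0.0487, a call lost under 12 of 16 alternatives. The median log2 fold change of the 29 was -0.25 for IR over sham and 0.27 for IPO over IR, beside -0.05 and 0.02 over all genes. Tirap, the membrane adaptor that brings MyD88 to TLR2 and TLR4, had 16.2, 16.2 and 12.8 FPKM in IPO livers, 1.69, 2.19 and 2.45 FPKM in IR livers, and 14.9, 14.4 and 7.77 FPKM in sham livers. The IR libraries were again apart from all 6 others, with sham replicate 3 the lowest of the 6. Its log2 fold change was -2.25 for IR over sham (SE 0.24, limma adjusted p = 0.00139) and 2.58 for IPO over IR (SE 0.24, limma adjusted p = 0.000402). Tbk1, a kinase of the IKK family, had 18.3, 18.1 and 18.5 FPKM in IPO livers, 9.49, 9.89 and 10.9 FPKM in IR livers, and 18.8, 18.1 and 15.4 FPKM in sham livers, with log2 fold changes of -0.76 for IR over sham (SE 0.12, limma adjusted p = 0.00633) and 0.83 for IPO over IR (SE 0.12, limma adjusted p = 0.00243).

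Nfkbia encodes IκBα, which holds NF-kB in the cytoplasm and is itself an early NF-kB target (ENSMUSG00000021025.7, chr12:55489411-55492647, minus strand, mm10). It had 39.1, 43.6 and 36.0 FPKM in IPO livers, 111, 99.5 and 154 FPKM in IR livers, and 57.8, 42.4 and 47.8 FPKM in sham livers. All IR values were above all others, IR replicate 3 was the highest, and IPO and sham overlapped. Nfkbia rose to 121 ± 28.7 FPKM in IR livers, against 49.3 ± 7.81 FPKM in sham livers (SD, n = 3 each), or 2.42-fold in the fit (log2 fold change 1.28, SE 0.18, limma adjusted p = 0.00449). In IPO livers it was at 39.6 ± 3.86 FPKM, 3.00-fold lower than in IR livers in the fit (log2 fold change -1.58, SE 0.18, limma adjusted p = 0.000944). IPO over sham was -0.31 (interval -0.72 to 0.10, limma adjusted p = 0.544). Nfkbia had the highest level of the 9 genes in IR livers, the fifth highest in IPO livers and the fourth highest in sham livers. Both calls held under every alternative run, and without IR replicate 3, the replicate with the high Kupffer cell sum, the log2 fold change was 1.09 for IR over sham and -1.40 for IPO over IR. Some markers of other liver cells were called in the same directions as Nfkbia. Of 11 sinusoidal endothelial markers, 4 were higher in IR than in sham livers (Dnase1l3, Ehd3, Kdr and Stab2) and 1 lower (Lyve1), and 3 were lower in IPO than in IR livers (Dnase1l3, Ehd3 and Kdr) and 1 higher (Lyve1). Of 9 stellate cell markers, 2 were higher in IR than in sham livers (Colec11 and Reln) and 1 was lower in IPO than in IR livers (Colec11). Over all genes, 3.86% were called higher and 7.64% lower in IR than in sham livers. Between IPO and IR the shares were 12.0% higher and 10.1% lower. The endothelial markers summed to 96.1 to 102 FPKM in IPO livers, 108 to 176 FPKM in IR livers and 76.0 to 118 FPKM in sham livers, and the stellate markers to 133 to 160, 109 to 206 and 120 to 145 FPKM in IPO, IR and sham livers, so IR and sham overlapped in both lists and IPO lay below IR for the endothelial sum alone. The part of these cells in the Nfkbia level was not tested.

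Tnfaip3 encodes A20, a ubiquitin-editing enzyme that acts on RIPK1, TRAF6 and NEMO and is the other classic NF-kB-induced brake. It had 2.50, 1.34 and 2.62 FPKM in IPO livers, 2.23, 2.50 and 6.72 FPKM in IR livers, and 5.52, 1.84 and 3.23 FPKM in sham livers. The groups overlapped in every comparison, and the high IR value was again replicate 3. The log2 fold change was 0.06 for IR over sham (SE 0.43, interval -0.91 to 1.02, limma adjusted p = 0.94). For IPO over IR it was -0.59 (interval -1.56 to 0.37, limma adjusted p = 0.352). The first interval holds changes of either sign, while the Nfkbia interval for the same comparison ran from 0.87 to 1.68. Without IR replicate 3 the Tnfaip3 value for IR over sham was -0.39.

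**Figure D3:**
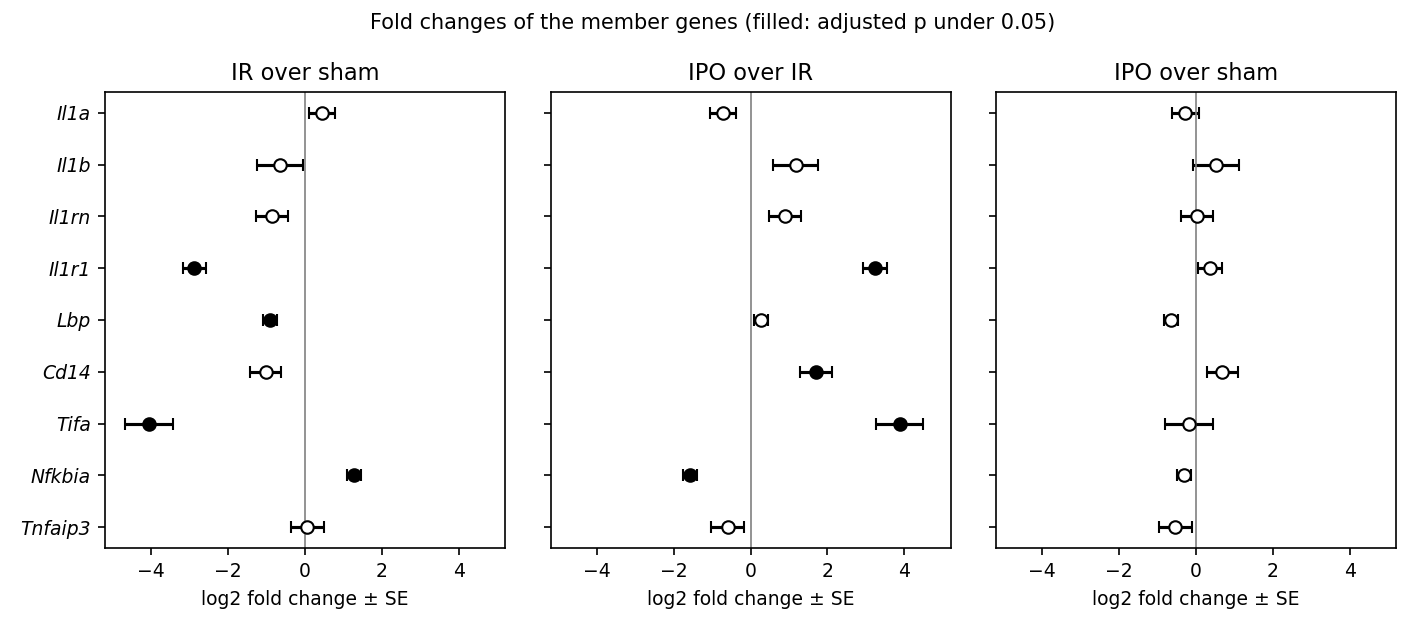
Log2 fold changes of the 9 genes in the 3 comparisons, on the log2(FPKM + 0.5) scale, with 1 SE as the bar; filled points had a limma adjusted p under 0.05. Il1r1 and Tifa lie left of 0 for IR over sham (-2.88 and -4.06) and right of 0 for IPO over IR (3.24 and 3.87), Nfkbia has the opposite signs (1.28 and -1.58), and no point is filled for IPO over sham.

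Bcl3, an atypical nuclear IκB protein, fell in IR livers and was higher in IPO livers: it had 46.5, 41.3 and 32.8 FPKM in IPO livers, 16.9, 7.50 and 9.54 FPKM in IR livers, and 75.8, 53.4 and 30.2 FPKM in sham livers. The log2 fold change of Bcl3 was -2.16 for IR over sham (SE 0.35, limma adjusted p = 0.00749) and 1.85 for IPO over IR (SE 0.35, limma adjusted p = 0.00749). Nfkbiz, which encodes the nuclear protein IκBζ, had 3.63, 4.31 and 4.22 FPKM in IPO livers, 8.21, 8.52 and 14.1 FPKM in IR livers, and 6.94, 4.67 and 5.85 FPKM in sham livers. It was lower in IPO than in IR livers (log2 fold change -1.20, SE 0.22, limma adjusted p = 0.00574), and IR over sham was 0.74 and missed the threshold (limma adjusted p = 0.0539). Of the 7 genes of the list tested, Bcl3 was the one called between IR and sham, and Bcl3 and Nfkbiz were the 2 called between IPO and IR. That is 14.3% lower in IR than in sham livers, beside 7.64% of all genes. Between IPO and IR it is 14.3% in each direction, beside 12.0% higher and 10.1% lower.

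All 5 NF-kB subunit genes were tested. Rel, the c-Rel subunit, had 1.33, 1.51 and 1.56 FPKM in IPO livers, 4.27, 2.59 and 3.91 FPKM in IR livers, and 2.10, 1.18 and 2.26 FPKM in sham livers, with all IR values above all others. It was lower in IPO than in IR livers (log2 fold change -1.03, SE 0.23, limma adjusted p = 0.013). The IR over sham value of 0.81 passed narrowly (limma adjusted p = 0.0492) and the call was lost under 12 of 17 alternatives. Nfkb1, which encodes p105 and p50, was higher in IPO livers, at 3.05 to 3.16 FPKM, than in IR livers, at 1.59 to 2.29 FPKM (log2 fold change 0.56, SE 0.14, limma adjusted p = 0.0225). Rela, the p65 subunit, was named after its values were seen and had 21.0 to 25.4 FPKM in IPO livers, 17.0 to 29.7 FPKM in IR livers and 18.8 to 22.9 FPKM in sham livers, which overlapped.

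Among 20 further feedback inhibitors, 18 were tested, of which 3 rose in IR livers (Dusp1, Tnfrsf1b and Traf4) and 2 fell (Tnip2 and Tollip). These are 16.7% and 11.1% of the list, beside 3.86% and 7.64% of all genes. The calls of Tnfrsf1b (limma adjusted p = 0.0467) and Tollip (0.0492) were lost under 14 and 13 of 18 alternatives. The count that rose was 1 to 3 under them, 1 whenever a sham or IR library was left out, and the count that fell was 0 to 5, with 0 without sham replicate 1 or sham replicate 2, 4 without IR replicate 3 and 5 without sham replicate 3. In IPO livers 3 were higher than in IR livers (N4bp1, Tnip2 and Tollip) and 2 lower (Dusp1 and Traf4), beside 12.0% and 10.1% of all genes, and the N4bp1 call (limma adjusted p = 0.0491) was lost under 12 of 16 alternatives. Dusp1, a phosphatase of p38 and JNK, had 22.6, 25.9 and 20.1 FPKM in IPO livers, 65.2, 138 and 171 FPKM in IR livers, and 21.4, 22.7 and 20.7 FPKM in sham livers. All IR values were well above the narrow range of the other 6 libraries, with log2 fold changes of 2.39 for IR over sham (SE 0.30, limma adjusted p = 0.00279) and -2.32 for IPO over IR (SE 0.30, limma adjusted p = 0.00134). Tnip2, a partner of A20 that binds ubiquitin, had 6.92, 5.30 and 6.83 FPKM in IPO livers, 3.15, 1.79 and 1.90 FPKM in IR livers, and 8.25, 6.60 and 4.12 FPKM in sham livers. It fell in IR livers (log2 fold change -1.28, limma adjusted p = 0.0168) and was higher in IPO than in IR livers (log2 fold change 1.32, limma adjusted p = 0.00796). Traf4 was at 3.67 to 6.87 FPKM in IPO livers, 11.6 to 11.8 FPKM in IR livers and 6.39 to 7.74 FPKM in sham livers. Its log2 fold change was 0.70 for IR over sham (limma adjusted p = 0.0486, a call lost under 11 of 18 alternatives) and -1.07 for IPO over IR (limma adjusted p = 0.00609).

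The inflammasome genes, whose products prepare IL-1β for release, numbered 8 tested of 13 listed. Txnip, a thioredoxin-binding protein that can bind NLRP3, rose in IR livers: it had 14.4, 17.8 and 16.4 FPKM in IPO livers, 81.9, 108 and 108 FPKM in IR livers, and 11.6, 15.2 and 20.9 FPKM in sham livers. Its log2 fold change was 2.63 for IR over sham (SE 0.21, limma adjusted p = 0.000328) and -2.57 for IPO over IR (SE 0.21, limma adjusted p = 0.000247). Nlrp12 was the one gene of the list that fell in IR livers (log2 fold change -0.76, limma adjusted p = 0.0403, lost under 12 of 18 alternatives), and Txnip was the one called between IPO and IR. Of the 8, 12.5% rose and 12.5% fell in IR livers, beside 3.86% and 7.64% of all genes. In IPO livers 12.5% were lower than in IR livers, beside 10.1% of all genes. Without IR replicate 3, 4 of the 8 tested genes fell in IR livers (Casp1, Casp4, Nek7 and Nlrc5) and Txnip still rose. In that fit 1154 of all 9649 genes were called in either direction, against 1109 with all libraries. The share of all genes called lower alone in that fit is not given here. Casp4 was at 1.27 to 1.63 FPKM in IPO livers and 0.435 to 1.26 FPKM in IR livers and missed the threshold (log2 fold change 0.71, limma adjusted p = 0.0612).

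Of 28 NF-kB target genes outside the inhibitors, 20 were tested. Between IR and sham, Gadd45b rose and Cxcl1, Icam1, Saa3 and Sod2 fell, and between IPO and IR, Cxcl1 was higher and Gadd45b lower. The share that rose in IR livers was 5.0%, beside 3.86% of all genes. Between IPO and IR 5.0% were higher and 5.0% lower, beside 12.0% and 10.1% of all genes. The 4 that fell, of 20 tested, stand beside 7.64% of all genes, and the count was 1 to 6 under the alternatives, 1 without sham replicate 1 and 6 without IR replicate 3. The calls of Saa3 (limma adjusted p = 0.0458) and Sod2 (0.0419) were each lost under 10 of 18 alternatives and that of Icam1 under 2, while those of Gadd45b and Cxcl1 held under all. The median log2 fold change of the 20 was -0.06 for IR over sham and 0.23 for IPO over IR. Gadd45b, a stress-induced regulator of MAP kinase signalling, had 14.7, 20.5 and 15.2 FPKM in IPO livers, 114, 81.9 and 80.1 FPKM in IR livers, and 15.2, 12.8 and 24.2 FPKM in sham livers. Cxcl1, a neutrophil attractant, had 127, 62.5 and 74.3 FPKM in IPO livers, 5.27, 6.88 and 21.8 FPKM in IR livers, and 165, 145 and 88.1 FPKM in sham livers. The IR libraries were apart from the other 6 for both genes, in opposite directions. The log2 fold changes for IR over sham and IPO over IR were 2.40 and -2.42 for Gadd45b (SE 0.24, limma adjusted p = 0.00128 and 0.000578) and -3.71 and 3.10 for Cxcl1 (SE 0.48, limma adjusted p = 0.00323 and 0.00331).

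Over all 8 lists, 101 of 135 genes were tested. In IR livers 6 rose and 14 fell, which is 19.8% of them, beside 11.5% of all genes, and 11 were higher and 8 lower in IPO than in IR livers, which is 18.8%, beside 22.1% of all genes. None of the 101 was called between IPO and sham. The lists were written with earlier results of these data in view, so these shares describe the lists and carry no test.

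**Figure D4:**
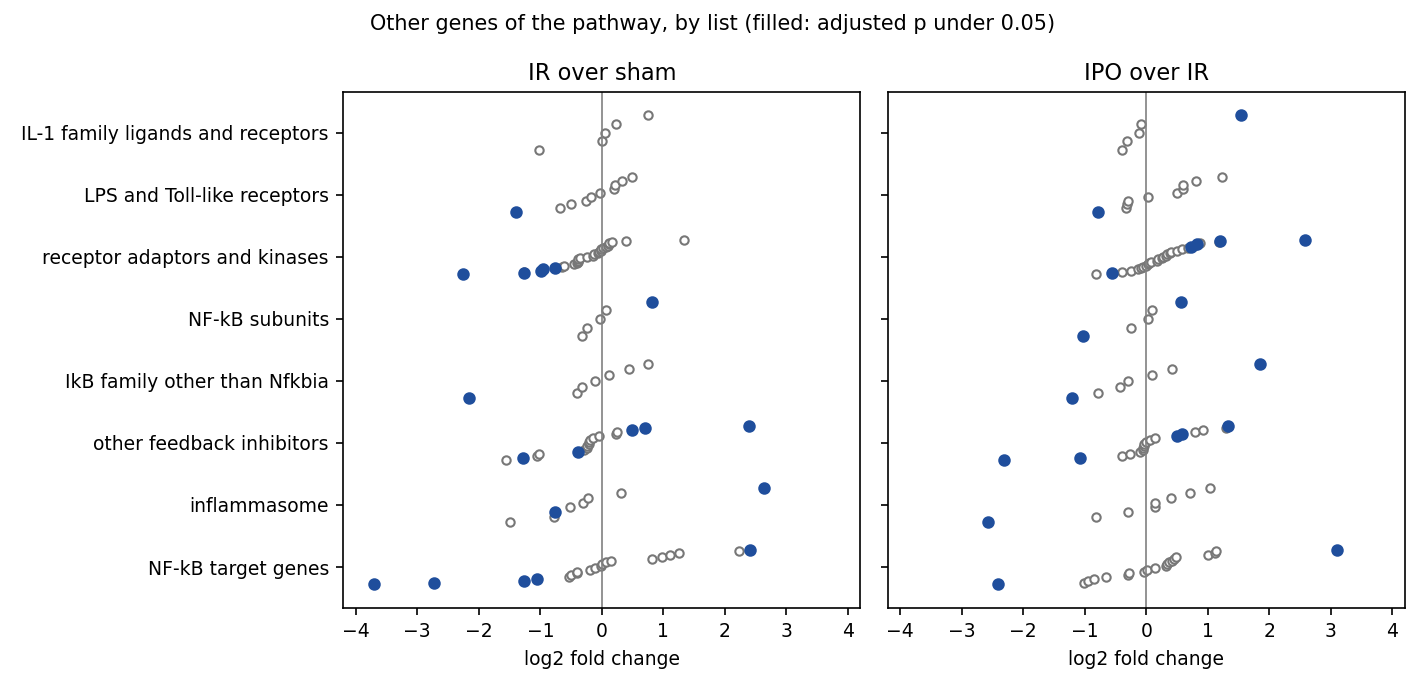
Log2 fold changes of the tested genes of the 8 pathway lists, 1 point a gene, for IR over sham and IPO over IR; filled points had a limma adjusted p under 0.05. Most points lie near 0, and the outlying ones include Tirap (-2.25 and 2.58), Bcl3 (-2.16 and 1.85), Txnip (2.63 and -2.57) and Cxcl1 (-3.71 and 3.10).

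The genes most like each member were found by the root-mean-square (RMS) difference between log2(FPKM + 0.5) profiles, each centred on its mean, over all 9 libraries and 9649 genes. For Il1r1 they were Serpina3n (RMS 0.193), Slc37a1 (0.198) and Tirap (0.331), beside a median of 1.496 over all genes. For Tifa they were Steap4 (0.392), Gm7694 (0.453) and Slc41a2 (0.511), with a median of 2.02. Those for Nfkbia were Rhob (0.188), Mcm10 (0.214) and Sesn2 (0.217), with a median of 0.761. Il1a was most like Irf8, Sparc and Ccdc80 (0.190 to 0.194), and Tnfaip3 like Tlr7, Fyb and Cdipt (0.265 to 0.336). Il1b was most like Vps26a, Xkr9 and Il1r2 (0.411 to 0.436), Il1rn like Cd300lf, Foxa2 and Lpar6 (0.292 to 0.299), Lbp like Ppm1l, C330018D20Rik and Zfp691 (0.116 to 0.134), and Cd14 like Plscr1, Akap2 and Akap12 (0.290 to 0.323). Among the 9 genes themselves, the closest profiles were those of Il1a and Tnfaip3 (0.443 apart, rank 1520) and of Il1a and Nfkbia (0.494 apart, rank 3003). Il1r1 and Tifa were 0.662 apart, which made Tifa the gene ranked 35 in likeness to Il1r1. Nfkbia and Tnfaip3 were 0.669 apart, at rank 2851. All these profiles share the same 9 libraries, so the values are a description.

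In the authors' deposited table for IR against sham, Nfkbia stood at 1.27, Tifa at -3.91, Il1r1 at -2.83 and Lbp at -0.90 on the log2 scale, with q-values of 0.137, 0.157, 0.125 and 0.182. In the authors' deposited table for IPO against IR, Tifa stood at 3.72, Il1r1 at 3.19, Cd14 at 1.66 and Nfkbia at -1.57, with q-values of 0.0277, 0.0171, 0.13 and 0.0359. Lbp was also in the authors' deposited table for IPO against sham, at -0.64 with a q-value of 0.352. The sources used here do not give the test behind them, and by those q-values none of the 4 would pass 0.05 between IR and sham.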

How the data were processed

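Mouse liver RNA was sequenced as 9 libraries with a stranded kit, per the labels' protocols, and mm10 is the build named in the submitters' processing notes. The sources used here do not give the aligner, the annotation or the counting program. FPKM per library is what the authors deposited in the gene table. Their deposited lists of differing genes give group means on a log2(FPKM + 1) scale, a log2 fold change, the matching linear fold ratio, and a p-value and q-value from an unnamed test. Those values were printed and entered no test. The deposited locus table holds the authors' FPKM for unannotated loci and, per the file headers, a length.

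The values are not counts. Of 200 low values in each library, 31.0% to 36.0% came within 0.1 of whole reads at the best step tried, which does not fix the depth. A single empty line was dropped, 9 symbols shared by several identifiers were kept apart, and no value column was left without a library.

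Values were tested as log2(FPKM + 0.5), a scale that understates the change of low genes, for the 9649 of 11229 genes whose mean over the 9 libraries reached 1 FPKM. The limma model (limma 3.58.1 and R 4.3.3, with files read by version 1.17.8 of data.table) had 1 mean per group and a trended variance prior, with 6 degrees of freedom left for the residuals and 3.56 added by the prior. Moderated tests were two-sided, and p-values were adjusted by Benjamini-Hochberg over all genes of a comparison and called under 0.05. Intervals are 95% and unadjusted. The model was first tested on simulated data in which 200 genes had been changed.

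The 9 genes, 8 pathway lists and 8 marker lists were chosen with earlier results of these data known. Named genes are the 9, the 2 genes of each pathway list with the smallest p in IR against sham and in IPO against IR, and the 3 genes most like each of the 9. Genes listed as called are also named, and others are said to be named after their values were seen. Each result was recomputed with a pseudocount of 0.1 or 1, and without the filter or with one at 5 FPKM. It was also recomputed after median-of-ratios scaling or quantile normalization, with a replicate block, with 2 groups alone, and without each library. IR against sham alone was recomputed with the description number as a covariate. Genes with a mean under 5 FPKM drop out at the stricter filter, so they have fewer alternatives. Promoter stretches came from RefSeq (GRCm38.p6), and gene overlaps from GENCODE M21.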

Additional observations from a re-analysis of the deposited data

Results flagged for a closer look

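Of the listed loci outside the gene table that overlap the genes examined, only the following had every IR library above every sham library. An unannotated locus on the plus strand, antisense to Nfkbia (chr12:55490621-55492585, mm10), had 0, 0.278 and 0.279 FPKM in IPO livers, 2.26, 1.04 and 1.15 FPKM in IR livers, and 0.220, 0.374 and 0.176 FPKM in sham livers. Its mean was 1.48 ± 0.673 FPKM in IR livers and 0.257 ± 0.104 FPKM in sham livers (SD, n = 3 each). All IR values were above all others, IPO and sham overlapped, and no test was run. The locus lies wholly within the span of Nfkbia and held 0 to 0.775% of the Nfkbia level in IPO livers, 0.745% to 2.04% in IR livers and 0.369% to 0.882% in sham livers. Reads of Nfkbia carried over to the other strand in library preparation were not tested as a source. A second antisense locus over Nfkbia was at 0 to 0.407 FPKM in IPO livers, 0.199 to 1.16 FPKM in IR livers and 0.435 to 1.18 FPKM in sham livers, which overlapped.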

How the results depend on the processing

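The calls of Il1r1 and Nfkbia in IR against sham and IPO against IR, and that of Tifa in IPO against IR, held under every alternative run. Of 140 repeats of a call among the 9 genes, 132 kept it and 8 lost it, those of Lbp, Cd14 and Tifa given with their values in the report. The number of all genes called between IR and sham, 1109, was 650 with the filter at 5 FPKM, 341 when only the 2 groups were fitted and 186 with the number in the description label as a covariate. That number is the same in all IPO libraries and cannot be told apart from the group there. The IPO against IR count, 2133, was 1229 with the filter at 5 FPKM. Leaving out 1 library gave 310 to 1361 genes for IR against sham, 1085 to 2231 for IPO against IR and 1 to 26 for IPO against sham, beside 22 with all libraries. The fewest were called without sham replicate 2 for IR against sham (310), without IPO replicate 1 for IPO against IR (1085), and without sham replicate 2 or IPO replicate 3 for IPO against sham (1 each). Of the 9 genes, 3 to 5 were called in IR against sham and in IPO against IR, and 0 in IPO against sham. With a library left out, the fit takes the spread from the others.

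With the replicate number as a block, 646 genes were called between IR and sham and 2 between IPO and sham, and Il1b passed between IPO and IR (log2 fold change 1.17, limma adjusted p = 0.00952). Over 9 same-numbered pairs of libraries the residual correlation ran from -0.137 to 0.0653 and 0 exceeded 0.1, so the numbers were not taken as pairs. Among the other named genes, Il1r2 and Nfkb1 each lost their IPO over IR call under 4 of 16 alternatives and Unc93b1 under 2 of 17. Tnip2 (4 of 17) and Tlr2 (2 of 17) lost their IR over sham call. Outside the fit with the description number, the limma adjusted p-values of these losses were at most 0.0803. Tbk1 and Bcl3 lost their IR over sham call in that fit alone, which sets IR against sham replicate 2 only.

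Signs turned only for values that had not passed the test. As each library was left out, the IPO over sham log2 fold change ran from -0.34 to 0.21 for Il1rn, from -0.060 to 0.65 for Il1r1, from -0.98 to 0.49 for Tifa, from -0.012 to 0.13 for Tbk1, from -0.017 to 0.16 for Dusp1, from -0.21 to 0.25 for Tnip2, from -0.14 to 0.27 for Txnip, from -0.20 to 0.25 for Gadd45b, from -0.13 to 0.066 for Il1rap and from -0.31 to 0.82 for Alpk1. The lowest value of Il1r1, Tbk1, Tnip2 and Alpk1 came without sham replicate 3. Gadd45b was 0.026 with median-of-ratios scaling and 0.0082 with quantile normalization. IR over sham ran from -0.39 (without IR replicate 3) to 0.40 for Tnfaip3, from -0.11 to 0.20 for Il1rap, from -1.01 to 0.059 for Ly96 and from -0.15 to 0.25 for Rela, which was -0.069 with the description number. IPO over IR ran from -0.62 to 0.29 (without IR replicate 3) for Il18bp, from -0.24 to 0.060 for Il1rap and from -0.091 to 0.30 for Rela. The cause was not tested.

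Depth is unknown, so the counting error of low values, such as those of Il1rn and Alpk1 in IR livers, is not known. With 3 libraries a group, the wide intervals of Il1a, Il1b, Il1rn and Tnfaip3 leave changes of either sign.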

Other observations

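Antisense loci over Il1r1 and Tifa were also listed. The locus antisense to Il1r1 (chr1:40310300-40316198, mm10) had 0.905, 0.890 and 0.614 FPKM in IPO livers, 0.147, 0.0483 and 0.196 FPKM in IR livers, and 2.02, 1.66 and 0.329 FPKM in sham livers. All IR values were below all others, and the locus held 0.598% to 0.758% of the Il1r1 level in IPO livers, 0.403% to 1.52% in IR livers and 0.668% to 1.53% in sham livers. The locus antisense to the start of Tifa (chr3:127788661-127798394, mm10) had 0.730, 0.696 and 0.602 FPKM in IPO livers, 0.132, 0 and 0.171 FPKM in IR livers, and 1.94, 1.05 and 0.527 FPKM in sham livers, with the IR livers lowest again. Neither of these 2 loci overlaps an annotated gene on its own strand. Other antisense loci went otherwise. A second one over Tifa (chr3:127807267-127837256, mm10), which overlaps Ap1ar and Gm43654 on its own strand, had 4.93, 4.07 and 4.10 FPKM in IPO livers, 1.68, 2.41 and 2.58 FPKM in IR livers, and 2.29, 2.32 and 3.00 FPKM in sham livers. All IPO values of this locus lay above all others, and IR and sham overlapped. The locus held 6.39% to 7.87% of the Tifa level in IPO livers, 40.1% to 80.0% in IR livers and 1.26% to 13.04% in sham livers. The locus over most of Lbp (chr2:158309716-158332752, mm10) overlapped between all groups, at 0.145 to 0.544 FPKM in IPO livers, 0.109 to 0.523 FPKM in IR livers and 0.298 to 1.38 FPKM in sham livers. The locus over the start of Lbp (chr2:158306650-158309658, mm10) was listed at 0 in IR replicates 1 and 2 and had 0.650 FPKM in IR replicate 3, beside 0.557 to 1.01 FPKM in IPO livers and 0.919 to 1.79 FPKM in sham livers. Over Nfkbia, the locus at chr12:55490621-55492585 (mm10) was at 0 to 0.279 FPKM in IPO livers, 1.04 to 2.26 FPKM in IR livers and 0.176 to 0.374 FPKM in sham livers, while the one at chr12:55489415-55489657 overlapped between the groups. No test was run on any locus, and the share of these reads that comes from the genes themselves was not tested.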
